A study of Drosophila melanogaster with 12 samples.

Results

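The comparison described here sets heads of flies that expressed mouse TET2 with the R1261C substitution (mTET2-R1261C) against heads of flies that carried the driver alone (control). It holds 6 of the 12 RNA-seq libraries of the study, 3 for each group, chosen by their genotype labels, and every gene with a summed count of at least 10 over the 12 libraries, which was 12433 of the 17730 genes in the counts table. The groups were mTet2-R1261C;Tet-Gal4 and W1118 Control;Tet-Gal4. Both carried dTet-Gal4, so the driver is shared. The groups differ in the UAS transgene together with its landing construct and the fly line it was placed in. For any gene below, effects of the transgene and of this line background cannot be told apart. The other 6 libraries, from flies with unmutated mTET2 (mTET2-wt) or with the R43G substitution, entered the same statistical fit and are set beside the results where they bear on them. Each library came from total RNA of a pool of 30 heads of 1-day-old adults, males and females in equal numbers. The labels call the libraries of a group biological replicates. The transgenes were placed in 1 landing site on chromosome arm 2R in the vector pUASTattB, and each genotype is therefore 1 inserted line. The Gal4 driver follows the fly gene dTet (symbol Tet), so that the transgene is made in the cells that use this gene. Whether the sampled heads carried balancer chromosomes is not given in the sources used here. In whole heads, fewer cells of a type and less RNA per cell cannot be told apart. Levels are given in CPM, read pairs per 1000000 after scaling of the libraries with the TMM factors of edgeR. Fold changes are log2 values of mTET2-R1261C over control, each with an approximate standard error after the ± sign. This error was derived from the test named next, as the absolute log2 fold change divided by the square root of the F statistic. The adjusted p-values come from the quasi-likelihood test of edgeR, by the method of Benjamini and Hochberg over all 12433 genes.

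TET proteins are dioxygenases that oxidize 5-methylcytosine to 5-hydroxymethylcytosine, on DNA in mammals and, for the single fly Tet protein, mainly on RNA. The arginine changed in R1261C lies in the catalytic domain of TET2, and substitutions in this domain are found in myeloid leukaemia. In the Gal4/UAS system the yeast activator Gal4 binds UAS sites and turns on the gene placed behind them, here a mouse cDNA whose reads are not part of the fly gene annotation.

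The libraries held between 15894383 and 18569981 counted read pairs in mTET2-R1261C and between 16932889 and 18468191 in control. Mean correlations of log levels with the other libraries of the same group lay between 0.982 and 0.992 over all 4 groups, and no library stood apart by this measure. Single gene lists did differ. Midgut digestive enzymes summed to 3124 CPM in mTET2-wt replicate 3, against 503 to 1021 CPM in mTET2-R1261C and 453 to 648 CPM in control. Photoreceptor markers such as ninaE, the major rhodopsin, were high in all libraries (12364, 9238 and 12087 CPM in mTET2-R1261C heads, against 10463, 11819.7 and 8874 CPM in control heads), as were neuron and glia markers, and spermatid genes summed to 2.46 to 3.15 CPM in mTET2-R1261C and 2.99 to 3.52 CPM in control. The endogenous Tet gene measured 355, 266 and 361 CPM in mTET2-R1261C heads, against 315, 295 and 282 CPM in control heads, and the groups overlapped (log2 fold change 0.14 ± 0.11, adjusted p = 0.705). The vector pUASTattB carries a mini-white gene and the landing construct a yellow gene, and reads from these copies are counted with w and y. The level of w, an ABC transporter of eye pigment precursors, was 20.2, 23.3 and 22.8 CPM in mTET2-R1261C heads, against 3.61, 5.56 and 4.96 CPM in control heads (log2 fold change 2.23 ± 0.13, adjusted p = 4.05e-06). For y, a secreted protein needed for black cuticle pigment, it was 10.6, 11.9 and 11.6 CPM in mTET2-R1261C heads, against 0.828, 0.876 and 2.59 CPM in control heads (log2 fold change 2.99 ± 0.33, adjusted p = 8.23e-04). Every mTET2-R1261C library was above every control library for both genes, and reads of the inserted and the endogenous copies cannot be told apart.

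Between mTET2-R1261C and control heads, 93 genes were differentially expressed (DEGs), which is 0.748% of the genes tested. A DEG had to pass an adjusted p of 0.05 with a log2 fold change of 1 or more in either direction. Of these, 55 were upregulated (0.442% of the genes tested) and 38 were downregulated (0.306%). For all 93, the 3 mTET2-R1261C libraries lay on one side of the 3 control libraries. The same held for 6.87% of all genes tested in the upward and 8.48% in the downward direction. Upregulated DEGs had a median log2 fold change of 1.87 and downregulated DEGs of -1.96, or 1.82 and -1.90 with genes of at most 3 counts in every library of a group set to their lower bound, while the median over all genes was -0.01. An average under 5 CPM in both groups was found for 40 of the 93 and an average above 50 CPM in at least 1 group for 15. Without the minimum fold change 185 genes passed the adjusted p, of which 102 were higher and 83 lower. An unadjusted p under 0.05 was reached by 1466 genes.

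The number of DEGs depended on single libraries. It was 55 (37 up and 18 down) without control replicate 2, and the downregulated DEGs numbered 22 without mTET2-R1261C replicate 1 and 25 without replicate 2. Without mTET2-R1261C replicate 3 the upregulated DEGs numbered 87. Of the 93 genes, 48 stayed DEGs in each of the 6 fits that left out 1 library, and 45 did so in these and in 8 other fits. DESeq2 called 157 genes, 105 up and 52 down, and 91 of the 93 were among them. In the following, a gene described without further remark belongs to the 45, and for the others the fits that lost the call are named.

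**Figure D1:**
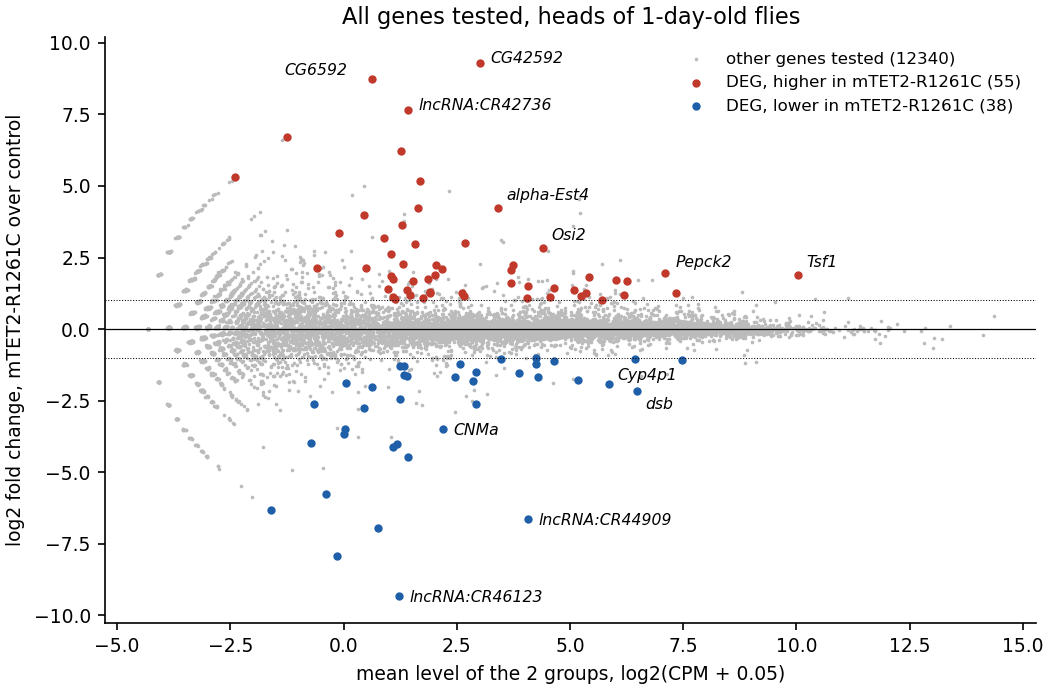
Log2 fold change of mTET2-R1261C over control against the mean level of both groups, log2(CPM + 0.05), for all 12433 genes tested, with the 55 upregulated DEGs in red, the 38 downregulated DEGs in blue and the minimum log2 fold change of 1 dotted. Most DEGs lie at low and middle levels, and Tsf1 is the DEG of the highest level.

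Osi2, alpha-Est4 and lncRNA:CR42736 shared the smallest adjusted p. Osi2 lies on 3R from 6209373 to 6213493 (coordinates of the counting annotation, dm6). Osiris genes encode insect membrane proteins that are used in cuticle-forming epithelia. Osi2 measured 38.6, 32.1 and 40.1 CPM in mTET2-R1261C heads, against 4.97, 6.23 and 4.50 CPM in control heads (log2 fold change 2.81 ± 0.14, adjusted p = 3.68e-06), with no overlap between the groups. It was the only DEG among 17 Osiris genes, whose median log2 fold change was 0.42, or 0.19 with rare genes at their bound. Osi24, Osi9 and Osi8 were the only others above 2 CPM in any library. Osi24 measured 8.66, 12.3 and 10.1 CPM in mTET2-R1261C, against 10.8, 9.63 and 9.05 CPM in control (log2 fold change 0.07 ± 0.15, adjusted p = 0.918) and Osi9 5.12, 6.38 and 6.22 CPM in mTET2-R1261C, against 6.62, 4.17 and 6.17 CPM in control (log2 fold change 0.07 ± 0.25, adjusted p = 0.969). Osi22, with 0.328, 0.481 and 0.575 CPM in mTET2-R1261C, against 0.0591, 0.0515 and 0 CPM in control (adjusted p = 0.0877), did not pass.

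Cuticle protein genes gave 3 upregulated and no downregulated DEG among 61 tested, with a median of -0.01. Edg91, a cuticle protein gene first found through its response to ecdysone, measured 4.98, 5.54 and 5.02 CPM in mTET2-R1261C heads, against 0.414, 0.567 and 0.980 CPM in control heads (log2 fold change 2.97 ± 0.30, adjusted p = 3.06e-04). TwdlE, of the Tweedle family, had 3.54, 3.37 and 2.93 CPM in mTET2-R1261C, against 0.473, 0.258 and 0.346 CPM in control (log2 fold change 3.18 ± 0.36, adjusted p = 8.23e-04), and Cpr11B, with a chitin-binding Rebers-Riddiford motif, had 47.1, 49.5 and 60.0 CPM in mTET2-R1261C, against 20.7, 26.0 and 23.2 CPM in control (log2 fold change 1.16 ± 0.13, adjusted p = 8.23e-04). All 3 genes were separated by library, Edg91 and TwdlE at a low level and Cpr11B at a higher one. None of the 29 genes of chitin metabolism was a DEG with edgeR in the fit of all 12 libraries, and 2 had an unadjusted p under 0.05 in each direction. Of these the chitinase gene Cht9 had 18.95, 19.4 and 1.83 CPM in mTET2-R1261C, against 2.84, 3.76 and 1.61 CPM in control (adjusted p = 0.154), with mTET2-R1261C replicate 3 near control. DESeq2 called it, as did edgeR without that replicate.

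DEGs of xenobiotic metabolism moved in both directions. Cytochrome P450 enzymes are monooxygenases for toxins, hormones and fatty acids, and 3 of the 83 tested were upregulated and 2 downregulated, with a median of 0.05. DESeq2 called 6 higher and 3 lower. Cyp6a9 and Cyp6a20 stand 745 bases apart on 2R on opposite strands, and both were higher. Cyp6a9 measured 57.6, 56.1 and 59.7 CPM in mTET2-R1261C heads, against 26.2, 24.8 and 20.6 CPM in control heads (log2 fold change 1.28 ± 0.09, adjusted p = 1.79e-05), and Cyp6a20, a gene known for its part in male aggression, 99.0, 117 and 89.5 CPM in mTET2-R1261C, against 42.5, 45.1 and 44.9 CPM in control (log2 fold change 1.20 ± 0.12, adjusted p = 2.47e-04). In a second pair, 180 bases apart on the same strand of 2R, the genes went opposite ways. Cyp4p1 was lower, with 26.0, 23.05 and 23.8 CPM in mTET2-R1261C, against 79.3, 94.0 and 103 CPM in control (log2 fold change -1.92 ± 0.14, adjusted p = 2.30e-05), while Cyp4p3 was higher, with 18.4, 29.5 and 19.03 CPM in mTET2-R1261C, against 9.05, 8.96 and 13.5 CPM in control (log2 fold change 1.09 ± 0.20, adjusted p = 0.0220). The call of Cyp4p3 was lost in a fit of only the 6 libraries and without mTET2-R1261C replicate 2, control replicate 1 or control replicate 2. Cyp6w1, the most abundant of the 5, fell to 127, 105 and 112 CPM in mTET2-R1261C, against 233, 236 and 259 CPM in control (log2 fold change -1.08 ± 0.17, adjusted p = 0.00821). Among 32 UDP-glycosyltransferases, which couple sugars to small molecules, Ugt302E1 was the 1 DEG. It had 0.262, 0.301 and 0.105 CPM in mTET2-R1261C, against 5.56, 4.17 and 5.30 CPM in control (log2 fold change -4.48 ± 0.55, adjusted p = 0.00149). No glutathione transferase of 35 tested was a DEG with edgeR in the fit of all 12 libraries. At an unadjusted p under 0.05, 4 were higher and 1 lower, beside 1466 of all 12433 genes in both directions together. GstE7 was called higher by DESeq2 and by edgeR without a filter on low counts. Without mTET2-R1261C replicate 3, edgeR called GstE7, GstE9 and GstZ1 higher.

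Alpha-esterases are carboxylesterases of a cluster on 3R, and 2 of the 10 tested were upregulated and none downregulated. The pair lies side by side on the same strand, alpha-Est4 on 3R from 7536687 to 7538615 and alpha-Est3 on 3R from 7538972 to 7541631, 356 bases apart. alpha-Est4 rose to 16.4, 24.9 and 19.2 CPM in mTET2-R1261C, against 1.24, 0.979 and 0.980 CPM in control (log2 fold change 4.23 ± 0.23, adjusted p = 3.68e-06). Its neighbour alpha-Est3 measured 41.8, 58.8 and 46.7 CPM in mTET2-R1261C, against 19.9, 16.7 and 20.9 CPM in control (log2 fold change 1.36 ± 0.12, adjusted p = 1.49e-04). For both, each mTET2-R1261C library was above each control library. Other members of the cluster did not pass, although 5 of the 10, the pair included, were higher and 0 lower at an unadjusted p under 0.05. alpha-Est5 had 23.7, 38.3 and 22.7 CPM in mTET2-R1261C, against 9.23, 8.76 and 22.4 CPM in control (log2 fold change 1.07 ± 0.33, adjusted p = 0.184), and it was called by DESeq2 and, without control replicate 3, by edgeR. alpha-Est1 had 107, 112 and 98.1 CPM in mTET2-R1261C, against 105, 112 and 112 CPM in control (log2 fold change -0.05 ± 0.11, adjusted p = 0.920).

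**Figure D2:**
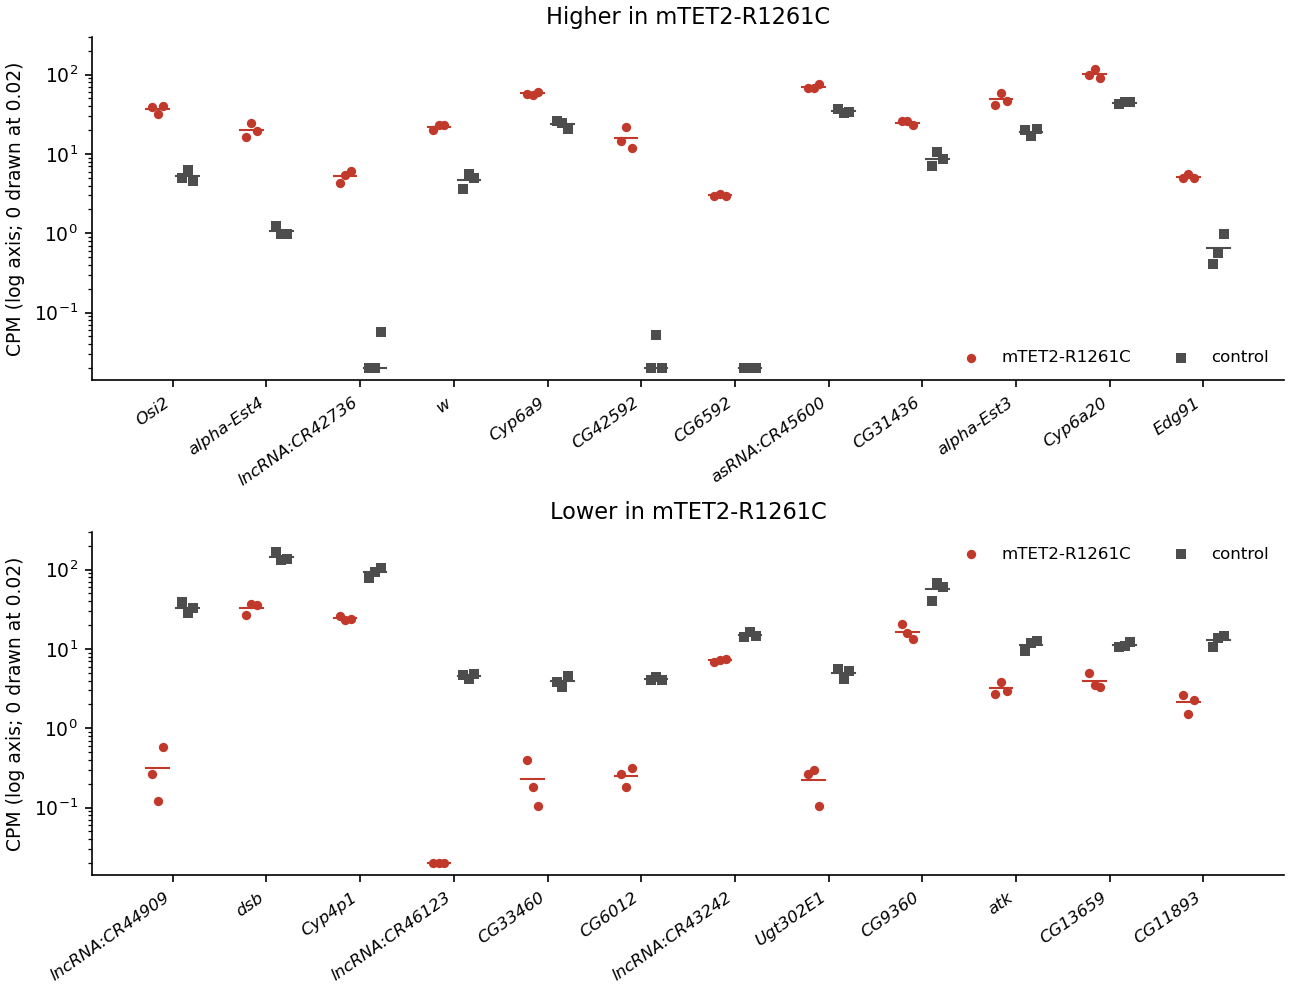
Level of 24 DEGs, the 12 of smallest adjusted p in each direction, in CPM on a log axis, with mTET2-R1261C libraries as red circles, control libraries as grey squares and horizontal lines at the group means. Values of 0 are drawn at 0.02, and for each of the 24 genes the groups do not overlap, with CG6592 without a read in control and lncRNA:CR46123 without a read in mTET2-R1261C.

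The DEG of the highest level was an iron-binding protein gene. Tsf1, the transferrin of the haemolymph, measured 1751, 1615 and 1563 CPM in mTET2-R1261C heads, against 580.3, 268 and 488 CPM in control heads (log2 fold change 1.88 ± 0.34, adjusted p = 0.0196). Its call was lost without mTET2-R1261C replicate 1 or 2 or control replicate 2. Mco1, a multicopper oxidase with a part in iron balance, measured 105, 148 and 97.8 CPM in mTET2-R1261C, against 25.6, 43.1 and 40.3 CPM in control (log2 fold change 1.68 ± 0.22, adjusted p = 0.00238). These were the 2 DEGs among 20 genes of iron and copper handling, whose median was 0.02. The ferritin subunit genes did not pass, with 379, 358 and 309.9 CPM in mTET2-R1261C, against 304, 330.4 and 378 CPM in control for Fer1HCH (log2 fold change 0.05 ± 0.09, adjusted p = 0.917) and 263, 247 and 228 CPM in mTET2-R1261C, against 224, 255 and 263 CPM in control for Fer2LCH (log2 fold change -0.01 ± 0.09, adjusted p = 0.996). Pepck2, a phosphoenolpyruvate carboxykinase and so an enzyme of gluconeogenesis, measured 222, 224 and 211 CPM in mTET2-R1261C, against 51.5, 44.0 and 73.8 CPM in control (log2 fold change 1.96 ± 0.21, adjusted p = 6.49e-04). The sugar transporter gene sut1 had 45.2, 28.3 and 23.5 CPM in mTET2-R1261C, against 12.4, 15.1 and 17.1 CPM in control (log2 fold change 1.12 ± 0.20, adjusted p = 0.0201), with the call lost in a fit of only the 6 libraries and without mTET2-R1261C replicate 1, control replicate 1 or control replicate 2. Both were upregulated DEGs among 20 genes of gluconeogenesis, glycolysis and trehalose, and none was downregulated (median 0.14).

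No gene of fat storage and fatty acid synthesis was a DEG with edgeR in the fit of all 12 libraries, of 17 tested, 8 were higher at an unadjusted p under 0.05, and 15 had a positive log2 fold change (median 0.44), while 48.5% of all genes tested did. Desat1, a stearoyl-CoA desaturase, measured 4513, 2587 and 2012 CPM in mTET2-R1261C heads, against 1435, 1584 and 1314 CPM in control heads (log2 fold change 1.07 ± 0.28, adjusted p = 0.104). DESeq2 called it, as did edgeR without mTET2-R1261C replicate 3, and without control replicate 3 edgeR called the lipase gene Lip4 higher. Lpin, a phosphatidate phosphatase, passed the adjusted p at a smaller change, with 332, 392.2 and 405 CPM in mTET2-R1261C, against 302, 295 and 273 CPM in control (log2 fold change 0.37 ± 0.08, adjusted p = 0.0455). None of 10 markers of the fat body was a DEG with edgeR or DESeq2, and 1 was higher at an unadjusted p under 0.05. Their summed level ran from 16855 to 32072 CPM in mTET2-R1261C and 14736 to 26632 CPM in control, 9 of 10 had a positive log2 fold change (median 0.50), and apolpp, the lipophorin precursor that makes up most of the sum, had 30301, 27402 and 15587 CPM in mTET2-R1261C, against 14951, 13530.1 and 24539 CPM in control (log2 fold change 0.47 ± 0.29, adjusted p = 0.591). The part of fat body content in the levels of these genes and of Tsf1 was not tested.

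Atg16 was the 1 DEG among 18 autophagy genes (median 0.03). Its product binds the Atg12-Atg5 conjugate at the forming autophagosome. Atg16, on 3R from 29827281 to 29835101, measured 85.8, 119.6 and 91.0 CPM in mTET2-R1261C heads, against 30.8, 30.4 and 29.5 CPM in control heads (log2 fold change 1.71 ± 0.19, adjusted p = 8.23e-04). Right beside it, 508 bases away on the same strand, lies CG42592, a gene of unknown function, on 3R from 29835610 to 29836288. CG42592 was nearly without reads in control, with 14.4, 21.8 and 11.8 CPM in mTET2-R1261C, against 0, 0.0515 and 0 CPM in control, so that it was at least 95.0-fold higher (adjusted p = 2.30e-05). Both genes were higher in all 3 mTET2-R1261C libraries, and the counting left out read pairs that overlapped both. CG6592, a serine-type endopeptidase gene on 3L, also had no read in control and 2.95, 3.13 and 2.93 CPM in mTET2-R1261C, which was at least 17.8-fold higher (adjusted p = 4.57e-05).

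Neighbours on the same strand of 3R gave DEGs in both directions. CG31436, from 25304137 to 25305651, measured 25.7, 25.8 and 23.1 CPM in mTET2-R1261C heads, against 7.04, 10.6 and 8.53 CPM in control heads (log2 fold change 1.51 ± 0.13, adjusted p = 9.94e-05). The gene 1819 bases before it, CG13659, measured 4.98, 3.55 and 3.29 CPM in mTET2-R1261C, against 10.6, 10.9 and 12.1 CPM in control (log2 fold change -1.51 ± 0.22, adjusted p = 0.00385), and CG11893, 9524 bases before CG13659, measured 2.62, 1.504 and 2.25 CPM in mTET2-R1261C, against 10.7, 13.8 and 14.4 CPM in control (log2 fold change -2.61 ± 0.38, adjusted p = 0.00418). Each was separated by library.

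Among downregulated DEGs, dsb (debris buster), a scavenger receptor of the CD36 family, shared the smallest adjusted p with lncRNA:CR44909. It measured 26.8, 36.3 and 35.3 CPM in mTET2-R1261C heads, against 167, 134 and 137 CPM in control heads (log2 fold change -2.15 ± 0.13, adjusted p = 3.96e-06). It was the 1 DEG among 8 CD36-like genes (median -0.03). CNMa, which encodes the CNMamide neuropeptide and lies 37816 bases from dsb on the same strand of 3L, measured 0.853, 0.842 and 0.523 CPM in mTET2-R1261C, against 5.68, 16.3 and 3.00 CPM in control (log2 fold change -3.50 ± 0.57, adjusted p = 0.0106). Control replicate 2 was far above the other control libraries, and the call was lost in a fit of only the 6 libraries. CNMa was the 1 DEG among 36 neuropeptide genes (median -0.01).

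Several downregulated DEGs fell to a trace level. CG33460 measured 0.393, 0.181 and 0.105 CPM in mTET2-R1261C, against 3.79, 3.35 and 4.61 CPM in control (log2 fold change -4.11 ± 0.38, adjusted p = 1.57e-04) and CG6012 0.262, 0.181 and 0.314 CPM in mTET2-R1261C, against 4.08, 4.43 and 4.09 CPM in control (log2 fold change -4.01 ± 0.38, adjusted p = 2.01e-04). CG9360 remained detectable, with 20.3, 15.7 and 13.2 CPM in mTET2-R1261C, against 40.0, 68.1 and 60.4 CPM in control (log2 fold change -1.78 ± 0.24, adjusted p = 0.00244), as did atk (artichoke), a leucine-rich repeat protein of the extracellular matrix, with 2.69, 3.85 and 2.98 CPM in mTET2-R1261C, against 9.52, 11.7 and 12.6 CPM in control (log2 fold change -1.83 ± 0.25, adjusted p = 0.00275). atk overlaps CG42764 on its strand, and reads shared by the genes were not counted. Tdh, the threonine dehydrogenase gene 2081 bases from atk on the other strand, measured 14.9, 18.2 and 14.3 CPM in mTET2-R1261C, against 26.6, 29.8 and 45.9 CPM in control (log2 fold change -1.11 ± 0.21, adjusted p = 0.0220). Its call was lost in the fit of only the 6 libraries, with the replicate number as a block, and without mTET2-R1261C replicate 1 or 3 or control replicate 3.

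Sensory genes gave few DEGs. Among 131 odorant, gustatory and ionotropic receptors, 1 was upregulated and none downregulated. The median was -0.25, or -0.18 with rare genes at their bound, and 84 members were below 0 where 51.2% of all genes were. Without control replicate 2 the median of -0.25 became -0.12. The DEG, Ir75b, an olfactory receptor for acids, measured 3.08, 2.59 and 2.93 CPM in mTET2-R1261C heads, against 1.36, 1.55 and 1.04 CPM in control heads (log2 fold change 1.12 ± 0.23, adjusted p = 0.0382). Pickpocket genes, sodium channels of the DEG/ENaC family, held 2 upregulated DEGs of 24, ppk13 with 3.87, 3.19 and 2.51 CPM in mTET2-R1261C, against 1.24, 0.515 and 0.865 CPM in control (log2 fold change 1.87 ± 0.29, adjusted p = 0.00784) and ppk19 with 1.11, 1.08 and 0.837 CPM in mTET2-R1261C, against 0.118, 0.206 and 0.346 CPM in control (log2 fold change 2.14 ± 0.44, adjusted p = 0.0364). Odorant binding proteins held 1 in each direction among 39. Obp8a measured 6.56, 4.51 and 4.55 CPM in mTET2-R1261C, against 1.77, 2.27 and 2.48 CPM in control (log2 fold change 1.25 ± 0.25, adjusted p = 0.0283), and Obp56h, known for its part in male courtship, 15.7, 10.8 and 11.5 CPM in mTET2-R1261C, against 19.8, 31.8 and 24.9 CPM in control (log2 fold change -1.01 ± 0.20, adjusted p = 0.0325). These calls were among the less secure ones. That of ppk13 was lost in the fit of only the 6 libraries. Those of ppk19, Ir75b, Obp8a and Obp56h were lost there and with the replicate number as a block. They were also lost when 1 library was left out, for Ir75b any of the 6, for ppk19 any other than control replicate 3, for Obp8a any other than replicate 3 of either group and for Obp56h any other than replicate 1 of either group. Obp56h was not called by DESeq2 or with RLE scaling.

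In the eye pigment pathways, 14 genes were tested. Besides w, se (sepia), which makes a precursor of the red drosopterins, was a DEG and was lower, with 37.8, 76.3 and 57.2 CPM in mTET2-R1261C heads, against 117, 113 and 121 CPM in control heads (log2 fold change -1.03 ± 0.18, adjusted p = 0.0176). Pu (Punch), the GTP cyclohydrolase that starts pteridine synthesis, was lower below the minimum fold change, with 232, 421 and 315 CPM in mTET2-R1261C, against 585, 604 and 609.8 CPM in control (log2 fold change -0.89 ± 0.17, adjusted p = 0.0214). The ommochrome gene cd (cardinal) was higher below this minimum, with 23.3, 25.3 and 26.6 CPM in mTET2-R1261C, against 14.2, 15.1 and 14.5 CPM in control (log2 fold change 0.78 ± 0.08, adjusted p = 2.80e-04). Their groups did not overlap. The call of se was lost in the fit of only the 6 libraries and without mTET2-R1261C replicate 1, control replicate 1 or control replicate 2.

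Cell cycle and DNA repair genes gave 1 DEG in each direction among 26. phr, the photolyase gene, measured 14.4, 22.5 and 21.8 CPM in mTET2-R1261C, against 7.69, 8.24 and 3.46 CPM in control (log2 fold change 1.59 ± 0.26, adjusted p = 0.00981), and Cdc6, a factor that loads the replicative helicase, 0.459, 0.903 and 0.784 CPM in mTET2-R1261C, against 2.60, 6.18 and 2.94 CPM in control (log2 fold change -2.43 ± 0.42, adjusted p = 0.0136). The call of phr was lost in the fit of only the 6 libraries, and that of Cdc6 there and without mTET2-R1261C replicate 1 or control replicate 2. Neprilysin-type peptidases, which cut peptides at the cell surface or in the haemolymph, mostly had positive values. Their sums overlapped, with 908 to 1076 CPM in mTET2-R1261C and 843 to 975 CPM in control. Of the 23 tested, 15 were above 0, where 48.5% of all genes tested were, and the median was 0.32. At an unadjusted p under 0.05, 8 were higher and 2 lower. The 1 DEG went the other way. Nepl4 was lower, with 7.80, 11.8 and 8.58 CPM in mTET2-R1261C, against 16.4, 49.2 and 23.2 CPM in control (log2 fold change -1.66 ± 0.36, adjusted p = 0.0454), and its call was lost in the fit of only the 6 libraries, in a robust fit, and without any 1 library other than control replicate 1. Nepl18 had 71.4, 49.9 and 25.6 CPM in mTET2-R1261C, against 13.4, 13.1 and 23.9 CPM in control (log2 fold change 1.54 ± 0.36, adjusted p = 0.0621). DESeq2 called Nepl17 and Nepl18 higher, and the fit without a filter on low counts called Nepl18. Without mTET2-R1261C replicate 3 the DEGs of the list were 2 higher and 0 lower (Nepl14 and Nepl18), and without control replicate 3 they were 5 higher and 0 lower (Nepl10, Nepl14, Nepl17, Nepl18 and Nep7). The gap gene transcription factor hkb (huckebein), outside all lists, had 5.84, 5.54 and 7.22 CPM in mTET2-R1261C, against 0.118, 0.258 and 0.115 CPM in control (log2 fold change 5.16 ± 0.66, adjusted p = 0.00184). Of the 93 DEGs, 30 belonged to one of 48 lists of named genes, in 17 of the lists, and 36 are known by a CG number only, 21 of them higher and 15 lower. Among these, CG14644 had 4.33, 5.36 and 4.34 CPM in mTET2-R1261C, against 0.118, 0 and 0.0576 CPM in control and was at least 27.8-fold higher (adjusted p = 0.00131), CG12995 had 0, 0 and 0.0523 CPM in mTET2-R1261C, against 1.42, 1.39 and 1.44 CPM in control and was at least 7.96-fold lower (adjusted p = 0.00782), and CG1695, the most abundant, had 252, 183 and 247 CPM in mTET2-R1261C, against 108, 98.8 and 80.1 CPM in control (log2 fold change 1.25 ± 0.22, adjusted p = 0.0167). The call of CG1695 was lost without mTET2-R1261C replicate 1 or control replicate 2 or 3. cDIP, a leucine-rich repeat protein that binds Dpr proteins, measured 45.1, 38.1 and 25.9 CPM in mTET2-R1261C, against 11.6, 15.4 and 13.03 CPM in control (log2 fold change 1.44 ± 0.23, adjusted p = 0.00851). Ssk, of the smooth septate junction, was lower and Mov10, an RNA helicase, higher, with -1.22 ± 0.27 and 2.64 ± 0.49, and the call of Ssk was lost without any 1 of the 6 libraries, in a robust fit, in the fit of only the 6 libraries and with the replicate number as a block. That of Mov10 was lost in the fit of only the 6 libraries and without mTET2-R1261C replicate 2 or control replicate 1 or 2.

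Non-coding genes made up 16 of the 93 DEGs, 7 up and 9 down, and 1.44% of the 1112 tested were DEGs, while 0.667% of the 11093 protein-coding genes were. Of 122 pseudogenes, 3 were DEGs. lncRNA:CR42736 lies on 2R from 18377487 to 18378196, 20.2 kb from the landing site of the transgenes. It had 4.26, 5.42 and 6.01 CPM in mTET2-R1261C and at most 1 count in a control library, 0, 0 and 0.0576 CPM, so that it was at least 31.1-fold higher (adjusted p = 3.68e-06). In the other transgenic groups it averaged 5.01 ± 0.715 CPM in mTET2-wt and 4.80 ± 0.433 CPM in mTET2-R43G (SD, n = 3 each). lncRNA:CR44909, on 2L from 20583656 to 20626206, went the other way, with 0.262, 0.120 and 0.575 CPM in mTET2-R1261C, against 38.9, 28.0 and 32.5 CPM in control (log2 fold change -6.62 ± 0.39, adjusted p = 3.96e-06). Part of its reads could not be counted, since lncRNA:CR43608, CG31677 and mir-288 lie within it or overlap it on its strand. lncRNA:CR46123, on 3R from 1366234 to 1366601, had no read in any mTET2-R1261C library and 4.73, 4.22 and 4.78 CPM in control, and was at least 25.7-fold lower (adjusted p = 1.14e-04).

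Smaller differences were found for asRNA:CR45600, with 67.0, 67.2 and 77.0 CPM in mTET2-R1261C, against 36.8, 33.2 and 34.1 CPM in control (log2 fold change 1.02 ± 0.08, adjusted p = 5.42e-05), and lncRNA:CR43242, with 6.89, 7.16 and 7.42 CPM in mTET2-R1261C, against 14.1, 16.2 and 14.5 CPM in control (log2 fold change -1.06 ± 0.12, adjusted p = 8.63e-04). Their fold changes stood just past the minimum, and fell below it without control replicate 2 or, for asRNA:CR45600, which overlaps CG6912, also without mTET2-R1261C replicate 3. asRNA:CR45528, an antisense gene on X, measured 5.18, 6.56 and 5.75 CPM in mTET2-R1261C, against 0.591, 0.103 and 0.231 CPM in control (log2 fold change 4.24 ± 0.53, adjusted p = 0.00165), and lncRNA:CR44043 6.56, 5.78 and 6.59 CPM in mTET2-R1261C, against 2.13, 0.979 and 2.02 CPM in control (log2 fold change 1.89 ± 0.22, adjusted p = 0.00110). lncRNA:CR44980 had 0.656, 0.542 and 0.575 CPM in mTET2-R1261C, against 2.54, 2.27 and 2.36 CPM in control (log2 fold change -2.01 ± 0.32, adjusted p = 0.00868) and overlaps CG43233 and lncRNA:CR43234. The remaining non-coding DEGs of the lists had at most 173 counts in a library (asRNA:CR44181), and their groups did not overlap.

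Of these, 3 were higher. lncRNA:CR44525 had 2.30, 3.67 and 2.35 CPM in mTET2-R1261C, against 0.887, 1.24 and 1.04 CPM in control (log2 fold change 1.39 ± 0.28, adjusted p = 0.0328), and lncRNA:CR44946 had 2.43, 3.31 and 2.93 CPM in mTET2-R1261C, against 0.946, 1.597 and 1.67 CPM in control (log2 fold change 1.03 ± 0.22, adjusted p = 0.0455). lncRNA:CR44737 had 0.393, 0.181 and 0.261 CPM in mTET2-R1261C, against 0, 0 and 0 CPM in control and was at least 1.65-fold higher (adjusted p = 0.0256). The other 4 were lower, asRNA:CR44181 at the highest level, with 2.30, 2.89 and 2.51 CPM in mTET2-R1261C, against 8.69, 8.91 and 7.21 CPM in control (log2 fold change -1.69 ± 0.32, adjusted p = 0.0226). lncRNA:CR44851 had 0.525, 0.361 and 0.366 CPM in mTET2-R1261C, against 1.54, 1.55 and 1.56 CPM in control (log2 fold change -1.88 ± 0.32, adjusted p = 0.0136). The neighbours asRNA:CR45835 and asRNA:CR45822 on 3L had 0.459, 0.120 and 0.418 CPM in mTET2-R1261C, against 2.42, 2.32 and 2.13 CPM in control (log2 fold change -2.76 ± 0.58, adjusted p = 0.0370) and 0.0656, 0 and 0.314 CPM in mTET2-R1261C, against 1.95, 1.91 and 1.499 CPM in control (log2 fold change -3.67 ± 0.79, adjusted p = 0.0438). All 7 calls were lost in some fits. With the replicate number as a block, those of lncRNA:CR44525, lncRNA:CR44946, lncRNA:CR44737, asRNA:CR45822 and asRNA:CR45835 were lost, and the first 4 of these also in the fit of only the 6 libraries. Leaving out 1 library lost the calls of lncRNA:CR44946 and asRNA:CR45835 for any of the 6, of lncRNA:CR44525 and asRNA:CR45822 for any other than mTET2-R1261C replicate 3, and of asRNA:CR44181 for any other than control replicate 3. The call of lncRNA:CR44737 was lost without mTET2-R1261C replicate 1 or any control library, and that of lncRNA:CR44851 without mTET2-R1261C replicate 2 or control replicate 1 or 2.

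The innate immune lists held no DEG with edgeR in the fit of all 12 libraries. Antimicrobial peptides, which fat body and epithelia secrete on Toll or Imd signalling, had a median log2 fold change of 1.80 over 20 genes. Of these, 15 were above 0, where 48.5% of all genes tested were, and 0 were DEGs with edgeR in the fit of all 12 libraries. At an unadjusted p under 0.05, 9 were higher and 1 lower, and DESeq2 called DptA, DptB, AttC and BaraA1. The sums over the list per library were 219, 349 and 1094 CPM in mTET2-R1261C, against 212, 154 and 224 CPM in control, so that replicate 3 of mTET2-R1261C stood far above the others and replicate 1 was within the control range. Without this replicate 3 the median was 0.68, and edgeR called Drsl4 higher. DptA, a diptericin against Gram-negative bacteria, had 5.44, 30.3 and 175 CPM in mTET2-R1261C, against 2.60, 1.65 and 4.96 CPM in control (log2 fold change 4.53 ± 1.30, adjusted p = 0.139). Drs (drosomycin), an antifungal peptide, had 33.8, 105 and 207 CPM in mTET2-R1261C, against 48.6, 3.04 and 13.7 CPM in control (log2 fold change 2.42 ± 0.95, adjusted p = 0.322). For Drs, control replicate 1 was above mTET2-R1261C replicate 1.

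Bomanins and Daisho peptides, effectors of the Toll pathway, were more even. All 14 had a positive log2 fold change (median 0.64), 0 were DEGs with edgeR in the fit of all 12 libraries, and 7 had an unadjusted p under 0.05. DESeq2 called BomBc3, as did edgeR in the fit of only the 6 libraries. The sums were 779.7, 917 and 838 CPM in mTET2-R1261C, against 468, 475 and 649 CPM in control, with no overlap between the groups. BomBc3 measured 50.8, 66.7 and 54.7 CPM in mTET2-R1261C, against 27.9, 14.4 and 22.9 CPM in control (log2 fold change 1.40 ± 0.38, adjusted p = 0.113), and BomS1 47.5, 107 and 113 CPM in mTET2-R1261C, against 33.8, 25.5 and 52.7 CPM in control (log2 fold change 1.26 ± 0.44, adjusted p = 0.253). Of the 14, 10 lie within 0.1 Mb of the landing site, with a median of 0.73, and the 4 elsewhere had a median of 0.47. The part of this position was not tested. Turandot genes, humoral stress factors, summed to 457, 489.5 and 161 CPM in mTET2-R1261C, against 282, 50.2 and 163 CPM in control, which overlapped, and none of 5 was a DEG with edgeR in that fit, with 2 higher at an unadjusted p under 0.05 (median 1.38, or 1.07 with TotB at its bound). TotX had 39.1, 25.4 and 12.6 CPM in mTET2-R1261C, against 8.87, 5.20 and 8.94 CPM in control (log2 fold change 1.74 ± 0.47, adjusted p = 0.110), and it was called by DESeq2 and without mTET2-R1261C replicate 3. No gene of microbe recognition (12 tested), Toll and Imd signalling (22), the JAK-STAT pathway (8) or the JNK pathway (10) was a DEG with edgeR or DESeq2, with medians of 0.24, 0.07, 0.08 and -0.03. At an unadjusted p under 0.05, 5 genes of microbe recognition were higher, 4 of Toll and Imd signalling were higher and 2 lower, 0 of the JAK-STAT pathway differed and 1 of the JNK pathway was lower. PGRP-SB1, a secreted peptidoglycan recognition protein, had 48.2, 51.3 and 59.1 CPM in mTET2-R1261C, against 18.9, 11.2 and 39.3 CPM in control (log2 fold change 1.19 ± 0.46, adjusted p = 0.304). Among 11 Nimrod receptor genes (median 0.13), NimB3 was called higher by DESeq2. With edgeR it was called only without mTET2-R1261C replicate 3 or without control replicate 3. None of 13 genes of melanization (median 0.03) was a DEG with edgeR or DESeq2.

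**Figure D3:**
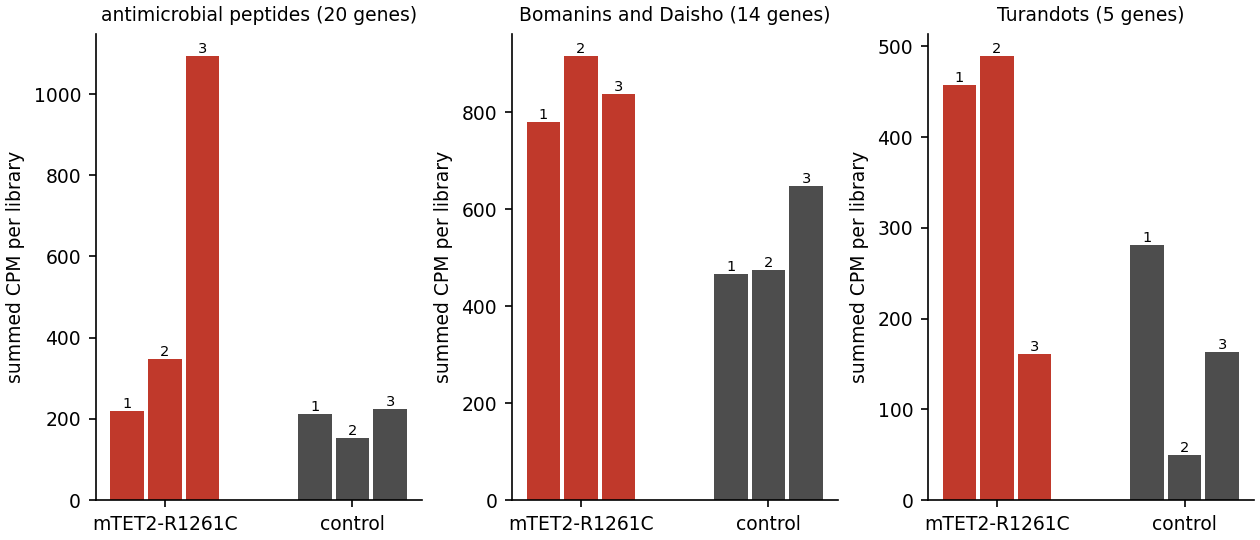
Summed CPM of the antimicrobial peptide, Bomanin and Daisho, and Turandot genes in each library, with mTET2-R1261C in red left of control in grey and the replicate number above each bar. The antimicrobial peptide sum reaches 1094 CPM in mTET2-R1261C replicate 3 alone, whereas all 3 mTET2-R1261C libraries lie above control for Bomanins and Daisho.

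None of 87 cytosolic ribosomal protein genes was a DEG with edgeR or DESeq2, 3 were lower at an unadjusted p under 0.05, and 85 had a negative log2 fold change, with a median of -0.13 that ran from -0.19 to -0.06 over the fits that left out 1 library. For 73 oxidative phosphorylation genes the counts were 0 DEGs, 10 lower at an unadjusted p under 0.05, and 64 with a negative value (median -0.09). Over all genes tested, 51.2% had a negative value. The summed levels of both lists overlapped between the groups. Ribosomal protein genes summed to 30924 to 35093 CPM in mTET2-R1261C and 33353 to 39930 CPM in control. Oxidative phosphorylation genes summed to 17324.5 to 19227 CPM in mTET2-R1261C and 17865.5 to 20922 CPM in control. The 13 genes of RNA and DNA methylation, Tet among them, had a median of 0.04 and no DEG or unadjusted p under 0.05. No marker of photoreceptors, neurons, glia, haemocytes, midgut, testis or either sex was a DEG with edgeR or DESeq2. Below the minimum fold change the collagen IV genes Col4a1 and vkg, listed as haemocyte markers and also made by fat body, were higher, with 501, 502 and 429.5 CPM in mTET2-R1261C, against 292, 319 and 315 CPM in control for Col4a1 (log2 fold change 0.63 ± 0.09, adjusted p = 0.00354) and 479, 494 and 385 CPM in mTET2-R1261C, against 287, 315 and 318 CPM in control for vkg (log2 fold change 0.56 ± 0.11, adjusted p = 0.0221), while the other 11 haemocyte genes did not pass. Rh5, the blue-sensitive rhodopsin, was lower at this size, with 197, 197 and 220.1 CPM in mTET2-R1261C, against 284, 301 and 254 CPM in control (log2 fold change -0.45 ± 0.09, adjusted p = 0.0382), and the clock photoreceptor gene cry higher, with 246, 227 and 219.9 CPM in mTET2-R1261C, against 169, 195 and 176 CPM in control (log2 fold change 0.36 ± 0.07, adjusted p = 0.0298). Female-biased yolk protein genes and fit summed to 19982, 25609 and 14493 CPM in mTET2-R1261C, against 22039, 15620.4 and 46280.2 CPM in control, control replicate 3 being the highest. Male-biased genes, roX1 and roX2 among them, summed to 1345, 1032 and 1404 CPM in mTET2-R1261C, against 1319, 1763 and 741 CPM in control, control replicate 3 being the lowest. The part of the sex ratio of a pool in any result was not tested.

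DEGs were spread over the chromosomes. Their share of the genes tested was 0.751% on 2L, 0.747% on 2R, 0.857% on 3L, 0.783% on 3R and 0.554% on X, with 1 of 14 genes on Y and 0 of 108 on chromosome 4. Within 0.5 Mb of the landing site, 2 of 131 genes were DEGs, lncRNA:CR42736 and Pepck2, the second at 170.1 kb. Starts of neighbouring DEGs were within 50 kb for 13 pairs, which held 24 of the 93 genes, and both members moved in the same direction in 9 of them. Besides the pairs above, these included Obp8a with CG15368, 85 bases apart on X and both higher, and Erasp with CG33460, 3077 bases apart on 2R and both lower. How often other tested genes form such pairs is not given here, so the counts of pairs have no background beside them. The call of Erasp was lost in the fit of only the 6 libraries, with the replicate number as a block and without any 1 library other than mTET2-R1261C replicate 1.

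The other transgenic groups were compared with the same 3 control libraries, so that their counts are not independent. Of the 93, mTET2-wt shared 61 as DEGs in the same direction, mTET2-R43G shared 66 and both shared 53. The share of all genes that were DEGs of these groups against control is not given here, so these counts have no background beside them. Osi2 averaged 21.0 ± 2.55 CPM in mTET2-wt and 33.7 ± 2.60 CPM in mTET2-R43G (SD, n = 3 each), dsb 42.0 ± 0.558 CPM in mTET2-wt and 37.9 ± 3.40 CPM in mTET2-R43G, Cyp4p1 24.4 ± 0.869 CPM in mTET2-wt and 23.8 ± 4.80 CPM in mTET2-R43G and Pepck2 291 ± 24.0 CPM in mTET2-wt and 159 ± 43.8 CPM in mTET2-R43G. For 19 genes neither other group passed against control, but only 5 of these passed in a direct test against at least 1 of the groups. Over all genes, 0.145% differed between mTET2-R1261C and mTET2-wt and 0.0724% between mTET2-R1261C and mTET2-R43G. These counts were 18 and 9 genes. Leaving out replicate 1 of mTET2-R1261C gave 9 against mTET2-wt and 5 against mTET2-R43G, and leaving out its replicate 2 gave 7 and 3. The counts were also 7 without replicate 2 of mTET2-wt and 3 without replicate 2 of mTET2-R43G. Among the 93 DEGs, 8 differed from mTET2-wt, 4 from mTET2-R43G and 3 from both.

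The 3 genes that differed from both other transgenic groups were alpha-Est4, alpha-Est3 and asRNA:CR45528. alpha-Est4 measured 16.4, 24.9 and 19.2 CPM in mTET2-R1261C, 1.33, 1.41 and 1.61 CPM in heads with mTET2-wt, 0.847, 1.11 and 1.62 CPM in those with mTET2-R43G and 1.24, 0.979 and 0.980 CPM in control. Its log2 fold change was 3.79 ± 0.22 over mTET2-wt (adjusted p = 1.85e-05) and 4.08 ± 0.23 over mTET2-R43G (adjusted p = 5.87e-06). alpha-Est3 measured 41.8, 58.8 and 46.7 CPM in mTET2-R1261C, 22.7, 23.3 and 21.1 CPM in heads with mTET2-wt, 19.5, 20.4 and 19.96 CPM in those with mTET2-R43G and 19.9, 16.7 and 20.9 CPM in control. For both genes the 3 mTET2-R1261C libraries were above all 9 others. The call of alpha-Est3 over mTET2-wt was lost without mTET2-R1261C replicate 2.

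CG42592 and Atg16 differed from mTET2-wt. CG42592 measured 14.4, 21.8 and 11.8 CPM in mTET2-R1261C, 0, 0.0521 and 0.0519 CPM in heads with mTET2-wt, 8.89, 5.29 and 3.24 CPM in those with mTET2-R43G and 0, 0.0515 and 0 CPM in control. Atg16 measured 85.8, 119.6 and 91.0 CPM in mTET2-R1261C, 29.0, 27.9 and 28.2 CPM in heads with mTET2-wt, 68.8, 42.96 and 37.9 CPM in those with mTET2-R43G and 30.8, 30.4 and 29.5 CPM in control, and mTET2-R43G replicate 1 was the highest of its group for both. Over mTET2-wt, the log2 fold change of Atg16 was 1.80 ± 0.19 (adjusted p = 0.00213), and CG42592 was at least 98.7-fold higher. Against mTET2-R43G neither gene was a DEG. Mco1, CG31436 and lncRNA:CR46123 were DEGs against mTET2-wt and not against mTET2-R43G. lncRNA:CR46123 had no read in the 6 mutant libraries and 6.32, 4.22 and 5.65 CPM in mTET2-wt, beside 4.73, 4.22 and 4.78 CPM in control. Mco1 averaged 117 ± 27.3 CPM in mTET2-R1261C, 36.4 ± 7.22 CPM in heads with mTET2-wt, 117 ± 14.1 CPM in those with mTET2-R43G and 36.3 ± 9.38 CPM in control (SD, n = 3 each).

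**Figure D4:**
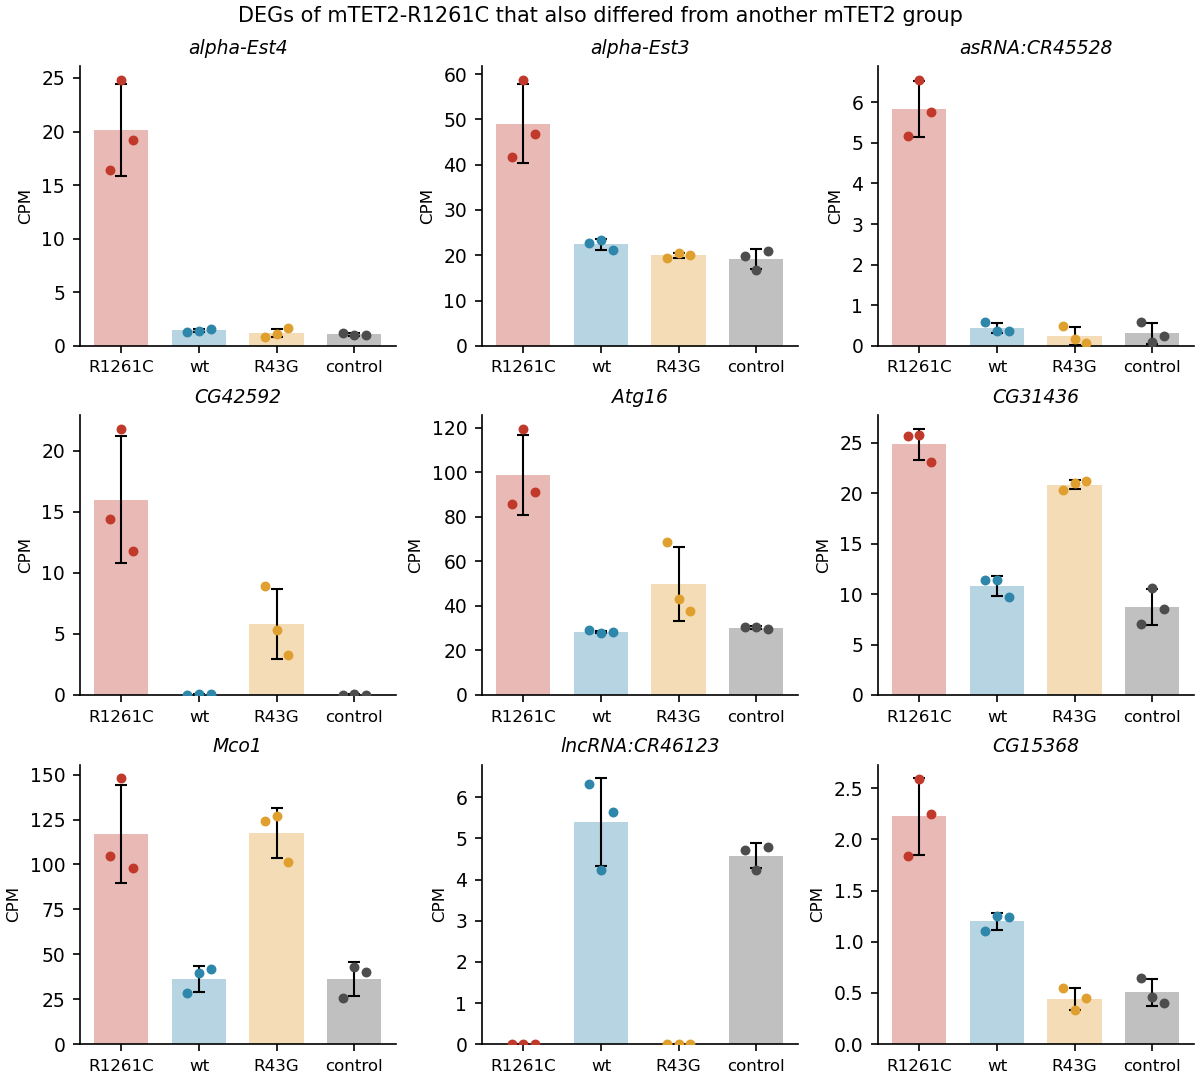
Level in CPM of the 9 DEGs of mTET2-R1261C that also differed from mTET2-wt or mTET2-R43G, with bars at the mean of 3 libraries, error bars of 1 SD and a point per library, the groups running from mTET2-R1261C at the left through mTET2-wt and mTET2-R43G to control. The alpha-esterase pair and asRNA:CR45528 are raised in mTET2-R1261C alone, and lncRNA:CR46123 is without reads in both mutants.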

How the data were processed

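RNA-seq counts of 6 libraries of adult heads, 3 of mTET2-R1261C and 3 of control, were analysed with the other 6 libraries of the series in one fit. The authors prepared stranded, ribosomal RNA-depleted libraries, aligned read pairs with HISAT2 (2.1.0 in the submitters' processing notes) to the FlyBase genome (dm6) and counted them per gene with featureCounts. The header of the table names version 1.6.0 and the submitters' notes 2.0.1. The deposited values are raw counts of read pairs, without normalization or filter. Pairs with several mapping places, or shared by overlapping genes, were not counted, and 2896 of the 17730 genes overlap another on the same strand. Counting was strand-specific over gene bodies, introns included. Symbols came from an Ensembl annotation (17633 genes matched).

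The minimum summed count over the 12 libraries was 10, as in the study. The fit used edgeR 4.0.16 (R 4.3.3, limma 3.58.1) with TMM factors from 0.959 to 1.05, 1 mean per group, its quasi-likelihood test and Benjamini-Hochberg adjustment. The common dispersion was 0.0315. An exact permutation test of 3 against 3 cannot go below p = 0.1. For a group with no library above 3 counts, the fold was taken against 3 counts per library. Such a bound reflects counting error alone. Replicates are pools of 30 heads that the labels call biological, and p-values measure the spread between them. Replicate numbers did not pair the groups. No 2 libraries were duplicates. Per-library values are given for the 12 DEGs of each direction with the smallest adjusted p, for DEGs within 50 gene lists, and for Tet, w and y. Other genes, among them hkb, cDIP, Tdh, CG14644, CG12995, CG1695 and list members that were not DEGs, were picked after their values were seen. These lists, members and alternatives were chosen with earlier results of these data known. Scripts were tested on simulated data. DESeq2 1.42.0, RLE, other filters, a robust fit, removal of ribosomal RNA genes (2.19% to 7.31% of counts), fits of fewer libraries and the replicate block were alternatives. Figures were drawn with Python 3.11.15, numpy 2.4.6, pandas 2.3.3 and matplotlib 3.10.9. Transgene levels were not analysed here.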

Additional observations from a re-analysis of the deposited data

Results flagged for a closer look

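The change against control of 9 DEGs differed between transgenic groups by a direct test of mTET2-R1261C over mTET2-wt or mTET2-R43G (the quasi-likelihood test of edgeR with Benjamini-Hochberg adjustment over all 12433 genes), and each is given as a value. In mTET2-R1261C over mTET2-wt, the log2 fold change was 3.79 for alpha-Est4 and 1.13 for alpha-Est3 (adjusted p = 0.00213). It was 1.80 for Atg16 and 8.54 for CG42592 (adjusted p = 9.98e-05). The last is a fitted value for a gene with at most 1 count per mTET2-wt library, and by its lower bound CG42592 was at least 98.7-fold higher. Further values were 1.20 for CG31436 (adjusted p = 0.00213), 1.68 for Mco1 (adjusted p = 0.00944), 3.73 for asRNA:CR45528 (adjusted p = 0.0107) and -9.57 for lncRNA:CR46123 (adjusted p = 3.72e-04). For lncRNA:CR46123, without a read in mTET2-R1261C, the level was at least 30.3-fold lower. In mTET2-R1261C over mTET2-R43G, the log2 fold change was 4.08 for alpha-Est4, 1.30 for alpha-Est3 (adjusted p = 0.00111), 4.56 for asRNA:CR45528 (adjusted p = 0.0103) and 2.31 for CG15368 (adjusted p = 0.0141). Over mTET2-wt, the call of alpha-Est3 was lost without mTET2-R1261C replicate 2, that of Mco1 without mTET2-wt replicate 2, and that of asRNA:CR45528 without either of these or mTET2-R1261C replicate 1. Over mTET2-R43G, the calls of asRNA:CR45528 and CG15368 were lost without mTET2-R1261C replicate 2 or mTET2-R43G replicate 2, and that of CG15368 also without mTET2-R1261C replicate 3, with the replicate block and in a fit of only the 6 libraries.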

How the results depend on the processing

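Of the 93 DEGs, none changed direction under any alternative. The count of DEGs against control moved by more than 1.5 times with DESeq2 (157, with 105 higher) and without a minimum fold change (185, with 102 higher and 83 lower). Leaving out 1 library gave 55 to 113 DEGs, 37 to 87 higher and 18 to 27 lower. Such fits have fewer samples. With the replicate number as a block, although the correlations of same-numbered libraries were -0.17, -0.15 and -0.28 and the numbers do not pair them, 68 genes were DEGs, 67 of them shared, and 26 calls were lost. In a fit of only the 6 libraries 73 genes were DEGs, and 35 of the 93 calls were lost. Against mTET2-wt, 18 genes were DEGs (12 higher, 6 lower). DESeq2 gave 44 (19 and 25), the replicate block 15 lower and a fit of only the 6 libraries 10 lower. Leaving out 1 library gave 7 to 15, 5 to 10 higher and 2 to 7 lower. Against mTET2-R43G, 9 genes were DEGs (7 higher, 2 lower). The counts were 2 with DESeq2 (2 higher, 0 lower), 5 with the replicate block (3 higher) and 4 in a fit of only the 6 libraries (3 higher, 1 lower). Without a minimum fold change there were 3 lower, and leaving out 1 library gave 3 to 10, 2 to 6 higher and 1 to 4 lower. The cause was not tested. Scalings moved the median of all genes by under 0.1. With 3 libraries a group, 40 of the 93 DEGs averaged under 5 CPM in both groups, and a gene that was not called may still differ.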
